A study of Mus musculus with 8 samples.

Results

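The mature mouse egg waits for sperm at metaphase of the second meiotic division (MII). The genes of this wait described here were chosen by name: Mos, Map2k1, Map2k2, Mapk3, Rps6ka1, Rps6ka2, Rps6ka3, Fbxo5 and Fbxo43. They are 9 of the 24860 genes listed in every library, and all 9 were found through their Ensembl identifiers in the GENCODE M21 annotation. Mos is a germ cell kinase that activates the MAP kinase kinases Map2k1 and Map2k2. These activate the ERK kinase Mapk3 (ERK1), and ERK in turn activates the p90 ribosomal S6 kinases (RSK) of the Rps6ka genes. Of this chain, the steps from Mos to ERK are the core of cytostatic factor, the activity that holds eggs at metaphase. The Emi proteins block the anaphase-promoting complex, the ubiquitin ligase whose action ends metaphase. Fbxo43 (Emi2) does so in the arrested egg, and Fbxo5 (Emi1) is its relative in dividing cells and earlier oocyte stages. In frog eggs RSK phosphorylates Emi2 and so stabilises it.

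The eggs came from C57BL/6 females of 6 weeks (postnatal day 42). One group carried the genotype labelled Esrp1-KO (4 libraries) and the other was wild type, or WT (4 libraries). ESRP1 is an RNA-binding protein that regulates alternative splicing, and the sources used here do not give how its gene was disrupted. Each library came from a tube of 15 lysed oocytes amplified by Smart-seq2, a full-length cDNA method that starts from the poly(A) tail and records no strand. The labels call the libraries biological replicates without saying whether 1 animal filled a tube, so the p-values rest on differences among tubes, which may be technical.

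The 3′ ends of these mRNAs matter for the assay, which reaches them through the poly(A) tail, and for Mos, whose translation in maturing mouse and frog oocytes follows from lengthening of that tail. Below are 30 bases, 5′ to 3′, from the last 50 bases of the transcripts of Mos, which was lower in Esrp1-KO eggs, of Fbxo5, which was higher, and of Fbxo43 and Map2k1, which passed in neither direction. Capitals mark the polyadenylation hexamer (AATAAA or ATTAAA) and the letters TTTTA, which begin both common forms of the cytoplasmic polyadenylation element (TTTTAT and TTTTAAT).
Mos: tagggcatatTTTTAggaAATAAAgttacc
Fbxo5: ataattttgtttagttaaAATAAAtttaga
Fbxo43: ttaaaATTAAAactaataATTAAAtttaaa
Map2k1: aaaatactatcaagttaaAATAAAagggac
All 4 lie on the minus strand of GRCm38, in GENCODE M21 transcripts, at chr4:3870667-3870696 for Mos, chr10:5799165-5799194 for Fbxo5, chr15:36150074-36150103 for Fbxo43 and chr9:64185779-64185808 for Map2k1. In Mos the TTTTA stood 3 bases before the hexamer, which ended 16 bases before the transcript's end. The last 100 bases of Mos held neither full form, TTTTAT nor TTTTAAT, and nor did those of Fbxo43 and Map2k1. In Fbxo5 the nearest TTTTA, part of a TTTTAT, ended 79 bases before the transcript's end and so lies outside the 30 bases shown, as do those of Fbxo43 (53 bases) and Map2k1 (86 bases). In the last 100 bases of 58737 protein-coding transcripts, searched on the sense strand only, 24.9% held the letters TTTTA and 42.5% held the first of the hexamers, which are found at the end of very many mRNAs. The full forms were rarer, with TTTTAT in 9.86% and TTTTAAT in 3.48%. A match describes the letters and not a working element.

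Levels are FPKM as deposited, that is reads scaled to the length of a gene's exons and to the library total. The length covers the exons of all annotated transcripts of a gene and can exceed that of a single transcript. For Map2k2 it was 5663 bases against 2405 in its principal transcript, and for Mos both were 1449. Between genes, levels can therefore be compared only per annotated exon length. They are relative levels, not molecules per egg, and in pooled eggs fewer cells of a type and less RNA per cell cannot be told apart. The library totals worked out from the values were 24910433 to 32337966 reads in Esrp1-KO and 25018182 to 28932109 in WT. Esrp1 itself averaged 3.30 ± 0.68 FPKM in Esrp1-KO and 17.5 ± 1.42 FPKM in WT (SD, n = 4 each; log2 fold change −2.12, adjusted p = 1.32e-05, limma). All 10 egg markers, such as Zp3 and Gdf9, reached 1 FPKM in at least 1 library, Figla in only 2 of 8 (means of 0.992 FPKM in Esrp1-KO and 0.51 in WT). The list had a summed level of 8853 to 9905 FPKM in Esrp1-KO and 7285 to 7981 in WT, most of it from Gdf9, Bmp15 and Oosp1. The groups of these 3, of Ddx4 and of Figla overlapped. Zp1, Zp2, Zp3, Nobox and Zar1 were higher in every Esrp1-KO library than in any WT library. Mean levels were 137 FPKM in Esrp1-KO and 68.0 in WT for Zp3, and 269 in Esrp1-KO and 119 in WT for Zar1. Of 18 follicle cell markers 14 were listed, and 12 of them, among them the defining genes Foxl2, Fshr and Cyp11a1, stayed below 1 FPKM in all 8 libraries. Cyp19a1 and Kitl were the exceptions, and the sum over the list was 3.93 to 5.49 FPKM in Esrp1-KO against 9.05 to 12.2 in WT. Of 6 blood and immune markers only Cd68 and Lyz2 reached 1 FPKM in any library, led by Esrp1-KO replicate 3 (3.498 and 5.436 FPKM), and the sum ran from 0.619 to 9.03 FPKM in Esrp1-KO and from 0.367 to 1.49 in WT. The 6 markers of the 2-cell embryo summed to 31.1 to 42.7 FPKM in Esrp1-KO and 30.05 to 47.8 in WT. Of these 6, 3 stayed below 1 FPKM in all 8 libraries (Zscan4c, Zscan4f and Zfp352). Nearly all of the sum was Tcstv1 (mean 20.0 FPKM in Esrp1-KO and 27.5 in WT) and Tcstv3 (14.5 in Esrp1-KO and 7.86 in WT). Tcstv3 was higher in every Esrp1-KO library than in any WT library, while the groups of Tcstv1 overlapped. The part of these markers in the results was not tested.

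Of the 9 arrest genes, 2 were higher in Esrp1-KO eggs (Mapk3 and Fbxo5), 1 was lower (Mos), 4 did not pass the test (Map2k1, Map2k2, Rps6ka3 and Fbxo43), and 2 stayed below the expression minimum of a mean of 1 FPKM (Rps6ka1 and Rps6ka2). The 3 that passed at an adjusted p of 0.05 (limma on log2(FPKM + 1), adjusted over 8021 genes) were the 3 whose groups did not overlap. The background was high. Of all genes tested 36.9% passed, 13.9% higher and 23.1% lower in Esrp1-KO, and the groups did not overlap in 36.8%, with Esrp1-KO above in 13.5% and below in 23.3%, so 3 of the 7 tested genes is a share near that of all genes. Lower genes were 62.5% of all calls as deposited, 68.4% with a common total of nuclear genes (951 calls higher, 2060 lower), 52.1% with median-ratio scaling (1430 calls higher, 1554 lower) and 51.1% under quantile normalization (1482 calls higher, 1546 lower). The median log2 fold change was 0.31 over the 7 tested arrest genes and −0.06 over all genes tested.

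**Figure D1:**
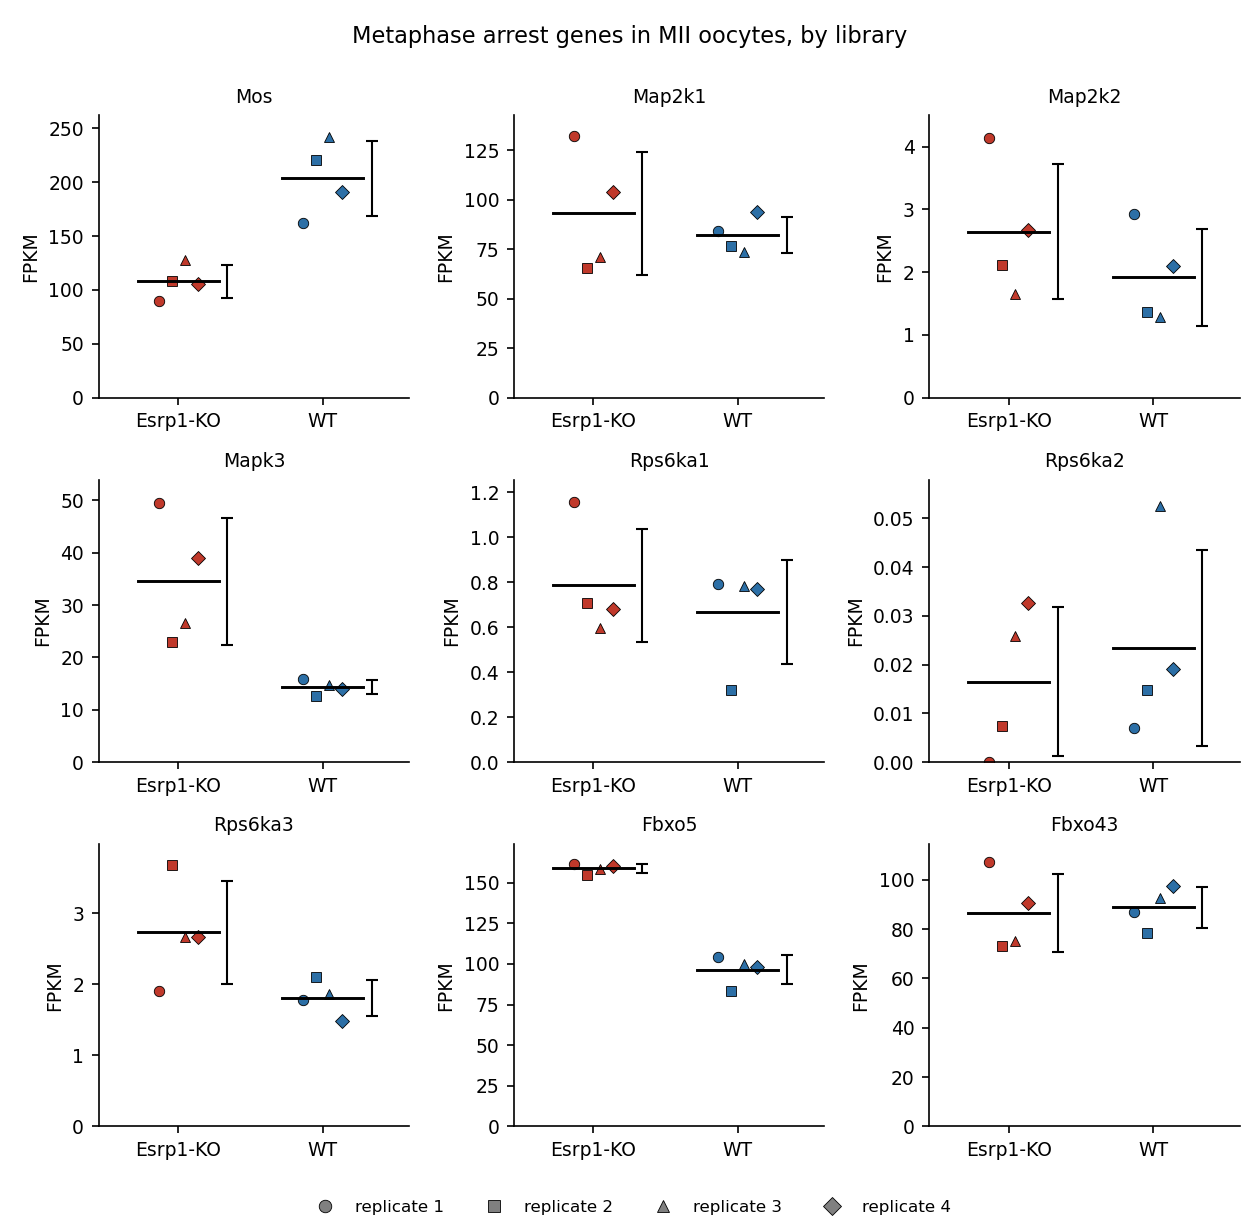
FPKM of each of the 9 arrest genes by library, Esrp1-KO left of WT, each panel with its own linear axis from 0; points are libraries by replicate, bars the mean of 4 and brackets 1 SD. The 4 Mos values of Esrp1-KO (90.1 to 128 FPKM) lie below the 4 of WT (162 to 242), those of Mapk3 and Fbxo5 lie above, and the groups overlap in the other 6 genes.

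Mos, the kinase at the head of the chain, fell. Mos (ENSMUSG00000078365, chromosome 4, 3870657 to 3872105, a single exon of 1449 bases) had 90.1, 108, 128 and 105 FPKM in Esrp1-KO replicates 1 to 4, against 162, 220, 242 and 190.5 FPKM in WT replicates 1 to 4. Every Esrp1-KO library lay below every WT library, and replicate 1 was the lowest and replicate 3 the highest of both groups. The mean was 108 ± 15.7 FPKM in Esrp1-KO and 204 ± 34.9 in WT (SD, n = 4 each), a ratio of 0.529, with a log2 fold change of −0.91 ± 0.16 (SE; 95% interval −1.26 to −0.55; adjusted p = 0.00175, limma). These levels stood for 3894 to 5323 reads per library in Esrp1-KO and 6198 to 9877 in WT, and no 50-base stretch of the Mos transcript is shared with another gene. Among all genes by mean level, Mos was number 390 in Esrp1-KO and number 195 in WT.

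The kinases between Mos and ERK did not pass the test. Map2k1 (MEK1, chromosome 9, 64185770 to 64253631) had 132, 65.4, 71.0 and 104 FPKM in Esrp1-KO replicates 1 to 4, against 84.2, 76.4, 73.5 and 93.8 FPKM in WT. The Esrp1-KO libraries spanned a wider range than the WT libraries and lay on both sides of it. The log2 fold change was 0.13 with a 95% interval of −0.35 to 0.61 (adjusted p = 0.675, limma), and without Esrp1-KO replicate 1 it was −0.058. Map2k2 (MEK2, chromosome 10, 81105915 to 81133975) was far less abundant, with 4.14, 2.12, 1.66 and 2.67 FPKM in Esrp1-KO and 2.93, 1.36, 1.28 and 2.11 FPKM in WT. Its groups overlapped as well (log2 fold change 0.31, 95% interval −0.22 to 0.85, adjusted p = 0.334, limma). Esrp1-KO was above WT in each of the 4 same-numbered pairs, and with the replicate block the SE was 0.12 in place of 0.24 and the adjusted p was 0.0740 (limma). Without Esrp1-KO replicate 1 the log2 fold change of Map2k2 was 0.13, and without WT replicate 3 it was 0.21. In FPKM, Map2k1 exceeded Map2k2 by 30.8 to 42.8 times in Esrp1-KO libraries and by 28.7 to 57.4 times in WT libraries. Nearly all MEK mRNA of both genotypes was thus Map2k1, though the size of the ratio depends on the exon lengths used.

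Mapk3 rose. Mapk3 (ERK1, chromosome 7, 126759601 to 126765819) had 49.6, 22.9, 26.6 and 39.1 FPKM in Esrp1-KO replicates 1 to 4, against 15.9, 12.7, 14.8 and 14.0 FPKM in WT. The lowest Esrp1-KO library lay above the highest WT library, and replicates 1 and 4 were the high ones in Esrp1-KO. The mean was 34.6 ± 12.2 FPKM in Esrp1-KO and 14.4 ± 1.35 in WT (SD, n = 4 each), 2.41 times as high, with a log2 fold change of 1.15 ± 0.22 (SE; 95% interval 0.65 to 1.65; adjusted p = 0.00309, limma). The size depended on the libraries taken, with 1.498 between replicates 1 and 4 alone (adjusted p = 0.00812, limma) and 0.80 between replicates 2 and 3 alone (adjusted p = 0.0330, limma).

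The RSK genes of the named group were low, and none of them passed. Rps6ka3 (RSK2, chromosome X, 159210307 to 159368244) had 1.91, 3.68, 2.67 and 2.67 FPKM in Esrp1-KO replicates 1 to 4, against 1.78, 2.10, 1.87 and 1.48 FPKM in WT. Only Esrp1-KO replicate 1 lay within the WT range. Its log2 fold change was 0.40 (95% interval 0.04 to 0.75, adjusted p = 0.0779, limma). It passed with 2 other scalings, median-ratio (adjusted p = 0.0391) and quantile (0.0259), with sample quality weights (0.0202) and without Esrp1-KO replicate 1 (0.51, adjusted p = 0.0248).

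Rps6ka1 (RSK1, chromosome 4, 133847290 to 133887797) had 1.15, 0.707, 0.598 and 0.681 FPKM in Esrp1-KO and 0.792, 0.319, 0.784 and 0.771 FPKM in WT, with WT replicate 2 the lowest of all 8. With no expression minimum its log2 fold change was 0.10 (adjusted p = 0.698, limma). Rps6ka2 (RSK3, chromosome 17, 7170115 to 7303315) was close to absent, with 0, 1, 4 and 5 reads in Esrp1-KO replicates 1 to 4 and 1, 2, 8 and 3 reads in WT, and 19.4% of its 50-base stretches occur in other genes. Neither gene's groups were apart.

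The RSK mRNA of these eggs came mostly from a paralog outside the named group, Rps6ka6 (RSK4), and this gene fell. Rps6ka6 (chromosome X, 111388192 to 111537959) had 7.30, 11.3, 11.5 and 10.7 FPKM in Esrp1-KO replicates 1 to 4, against 20.1, 22.0, 23.5 and 23.2 FPKM in WT. The groups lay far apart, with every Esrp1-KO library below 12 FPKM and every WT library above 20 FPKM (log2 fold change −1.07 ± 0.15, SE; adjusted p = 0.000572, limma). Rps6ka6 made up 70.4%, 72.0%, 77.7% and 75.9% of the summed FPKM of Rps6ka1, Rps6ka2, Rps6ka3 and Rps6ka6 in Esrp1-KO replicates 1 to 4, and 88.6%, 90.1%, 89.7% and 91.1% in WT. The sum of the 4 genes was 13.7 ± 2.33 FPKM in Esrp1-KO and 24.7 ± 1.49 in WT (SD, n = 4 each). Rps6ka3, in second place, held 18.1% to 23.5% of that sum in Esrp1-KO libraries and 5.81% to 8.58% in WT libraries.

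The Emi genes did not move together. Fbxo5 (Emi1, ENSMUSG00000019773, chromosome 10, 5799160 to 5805600) had 162, 155, 159 and 160.0 FPKM in Esrp1-KO replicates 1 to 4, against 104, 83.6, 100.2 and 97.9 FPKM in WT. The Esrp1-KO libraries were tightly grouped and all lay above the WT libraries. The mean was 159 ± 2.92 FPKM in Esrp1-KO and 96.5 ± 9.04 in WT (SD, n = 4 each), with a log2 fold change of 0.72 ± 0.11 (SE; 95% interval 0.47 to 0.96; adjusted p = 0.000853, limma). Fbxo5 thereby took rank 257 among all genes by mean level in Esrp1-KO and rank 409 in WT, and 8.71% of its 50-base stretches occur in other genes.

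Fbxo43 (Emi2, chromosome 15, 36150060 to 36164884), the Emi gene that holds the egg at metaphase II, had 107, 73.2, 75.4 and 90.5 FPKM in Esrp1-KO replicates 1 to 4, against 86.8, 78.5, 92.5 and 97.6 FPKM in WT. The groups overlapped, and the Esrp1-KO libraries lay at both ends of the combined range. The log2 fold change was −0.05, with a 95% interval of −0.38 to 0.28 (adjusted p = 0.823, limma), and its sign turned with median-ratio scaling (0.054).

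Ratios between the genes within a library do not change when a library is multiplied by 1 factor, though quantile normalization can change them. They are given as descriptions with no test. Each ratio below holds a gene whose own groups were apart, so its separation is not a further result. Fbxo5 stood above Fbxo43 by 1.51, 2.11, 2.10 and 1.77 times in Esrp1-KO replicates 1 to 4, against 1.20, 1.06, 1.08 and 1.004 times in WT. Both Emi mRNAs were thus about equal in WT eggs, and Emi1 mRNA was in excess in every Esrp1-KO library. Mos over Fbxo5 was 0.557, 0.697, 0.808 and 0.658 in Esrp1-KO and 1.55, 2.64, 2.42 and 1.95 in WT, so the order of these genes was opposite in the 2 genotypes in every library. Mos over Map2k1, the kinase over its direct substrate, was 1.29 ± 0.53 in Esrp1-KO and 2.53 ± 0.66 in WT (SD, n = 4 each), and the groups did not overlap. Mapk3 over Map2k1, the ERK kinase over its activator, was 0.375, 0.350, 0.375 and 0.377 in Esrp1-KO replicates 1 to 4 and 0.189, 0.166, 0.201 and 0.1496 in WT. It varied little among the Esrp1-KO libraries, although both genes were high in replicates 1 and 4 there, and the groups did not overlap.

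**Figure D2:**
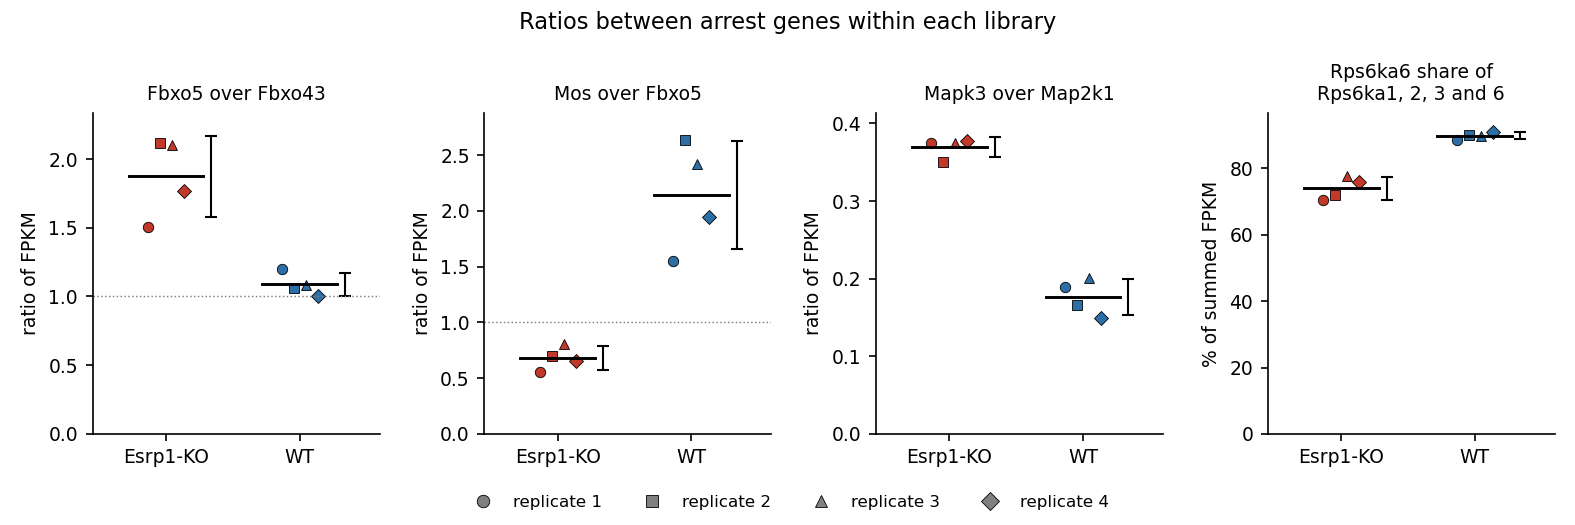
Ratios of FPKM within each library, Esrp1-KO left of WT, for Fbxo5 over Fbxo43, Mos over Fbxo5 and Mapk3 over Map2k1, and Rps6ka6 as a percentage of the summed FPKM of Rps6ka1, Rps6ka2, Rps6ka3 and Rps6ka6; points are libraries, bars the mean of 4, brackets 1 SD, dotted lines a ratio of 1. The groups are apart in all 4 panels, and Mos over Fbxo5 lies on opposite sides of 1, at 0.557 to 0.808 in Esrp1-KO and 1.55 to 2.64 in WT.

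By mean FPKM, a level per length, the order in Esrp1-KO was Fbxo5, Mos, Map2k1, Fbxo43, Mapk3, Rps6ka6, Rps6ka3, Map2k2, Rps6ka1 and Rps6ka2. In WT it was Mos, Fbxo5, Fbxo43, Map2k1, Rps6ka6, Mapk3, Map2k2, Rps6ka3, Rps6ka1 and Rps6ka2. Not all neighbours in these orders were apart. In Esrp1-KO the ranges of Mos and Map2k1, of Map2k1 and Fbxo43, and of Rps6ka3 and Map2k2 overlapped. In WT those of Fbxo5 and Fbxo43, of Fbxo43 and Map2k1, and of Map2k2 and Rps6ka3 overlapped. Within single WT libraries, however, Fbxo5 stood above Fbxo43 and Fbxo43 above Map2k1 in 4 of 4 by FPKM. The length behind FPKM was 3391 bases for Map2k1, whose transcript shown above has 2436, while for Fbxo43 both were 4035. On transcript length Map2k1 would stand higher, so the order of Fbxo43 and Map2k1 depends on the length used.

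The libraries of both genotypes also differed by replicate number. Map2k1 and Map2k2 were higher in replicates 1 and 4 than in replicates 2 and 3 of both genotypes, and Mos and Rps6ka3 were lower there. For Map2k2 the mean of replicates 1 and 4 was 1.80 times that of replicates 2 and 3 in Esrp1-KO and 1.91 times in WT, and for Mos these ratios were 0.827 in Esrp1-KO and 0.763 in WT. Mapk3 showed the split in Esrp1-KO (1.79 times) and not in WT, where the replicates were mixed (1.09 times). The labels tie no replicate number to a litter or a day. Within replicates 1 and 4 alone the log2 fold change was −0.85 for Mos and 0.66 for Fbxo5 (adjusted p = 0.0190 for both, limma), and within replicates 2 and 3 alone it was −0.97 (adjusted p = 0.0161, limma) and 0.77 (adjusted p = 0.0288, limma).

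**Figure D3:**
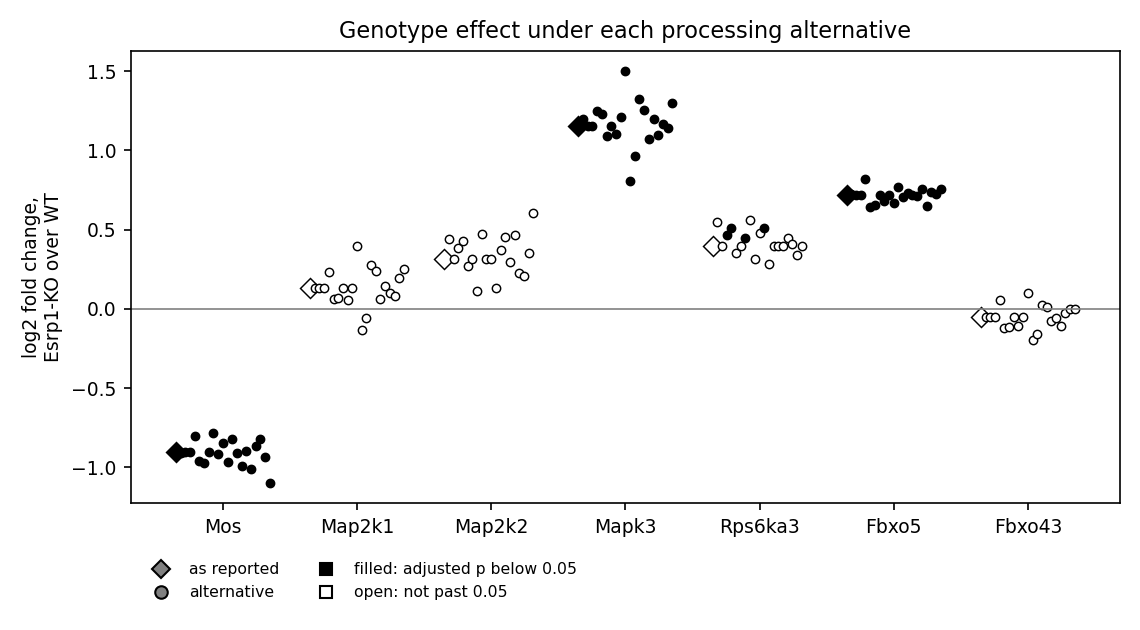
Log2 fold change (Esrp1-KO over WT, vertical axis) of the 7 tested arrest genes, as reported (diamonds) and under each alternative way of processing (circles), filled where the adjusted p was below 0.05 (limma) and open where it was not. Mos stays between −1.10 and −0.78, Mapk3 between 0.80 and 1.498 and Fbxo5 between 0.64 and 0.82, while Fbxo43 and Map2k1 take both signs.

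Around the chain, 93 further genes in 5 lists of known partners were looked at, and 63 passed the expression minimum. Of these 14 rose and 9 fell, or 36.5%, against 36.9% of all genes. By direction, 13.9% of all genes rose and 23.1% fell. Higher genes were thus the larger part of the calls among the partners, and lower genes among all genes. Only the majority among all genes held in every alternative. Among the partners, lower calls outnumbered higher ones with no expression minimum (9 to 7) and without Esrp1-KO replicate 4 (9 to 7). They also did without WT replicate 1 (8 to 7) and between replicates 2 and 3 alone (4 to 2). Without both WT replicate 1 and Esrp1-KO replicate 3 there were 6 of each. In the remaining alternatives higher calls were more numerous. Which of the partners passed depended on the libraries in several cases, given with each list. Between replicates 2 and 3 alone 6 of the 23 still passed, namely Rps6ka6, Pebp1, Rps6ka5, Msi2, Cpeb1 and Cpeb4. With no expression minimum 14 of the 23 still passed, and the calls of Cdc25b, Dusp7, Ensa, Pebp1, Ppp2ca, Ppp2r5e, Ppp3cb, Pum2 and Ube2s were lost.

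Among 21 partners of the ERK chain (scaffolds, inhibitors, phosphatases and substrates), 13 were tested. As 4 rose and 3 fell, 53.8% passed, against 36.9% of all genes. The median log2 fold change of those tested was 0.23. Beside Rps6ka6, the lower genes were Mapk1ip1l (3.499 ± 0.18 FPKM in Esrp1-KO and 6.04 ± 0.90 in WT; log2 fold change −0.64, adjusted p = 0.00374, limma), and Spred2, an inhibitor of Ras signalling (0.664 ± 0.076 FPKM in Esrp1-KO and 1.66 ± 0.60 in WT; −0.65, adjusted p = 0.0157). The higher genes were Cdk2ap2, an ERK substrate at the meiotic spindle (111 ± 6.69 FPKM in Esrp1-KO and 74.4 ± 13.3 in WT; 0.58, adjusted p = 0.00919, limma), Ksr1, a scaffold that brings MEK and ERK together (2.32 ± 0.87 FPKM in Esrp1-KO and 0.987 ± 0.13 in WT; 0.70, adjusted p = 0.0152), Pebp1, an inhibitor of signalling into MEK, and the ERK phosphatase Dusp7. Pebp1 had 27.7, 10.1, 8.51 and 27.5 FPKM in Esrp1-KO replicates 1 to 4, against 6.88, 4.002, 3.998 and 9.68 FPKM in WT (1.34, adjusted p = 0.0277, limma). Its groups overlapped, replicates 1 and 4 were its high ones in both genotypes, and 22.1% of its 50-base stretches are shared with other genes. Dusp7 averaged 171 ± 33.97 FPKM in Esrp1-KO and 118 ± 21.3 in WT (0.53, adjusted p = 0.0395, limma).
The Pebp1 call was lost without Esrp1-KO replicate 1 or 4 or WT replicate 2 or 3 (adjusted p = 0.0658 to 0.0757, limma), and the Dusp7 call without Esrp1-KO replicate 1, 2 or 4 or WT replicate 1 or 2 (0.0518 to 0.0981). Dusp7 was also lost with the replicate block (0.0635), quantile normalization (0.0716), a common total of nuclear genes (0.0619) and sample quality weights (0.0571), and was called in 7 of 20 alternatives.

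**Figure D4:**
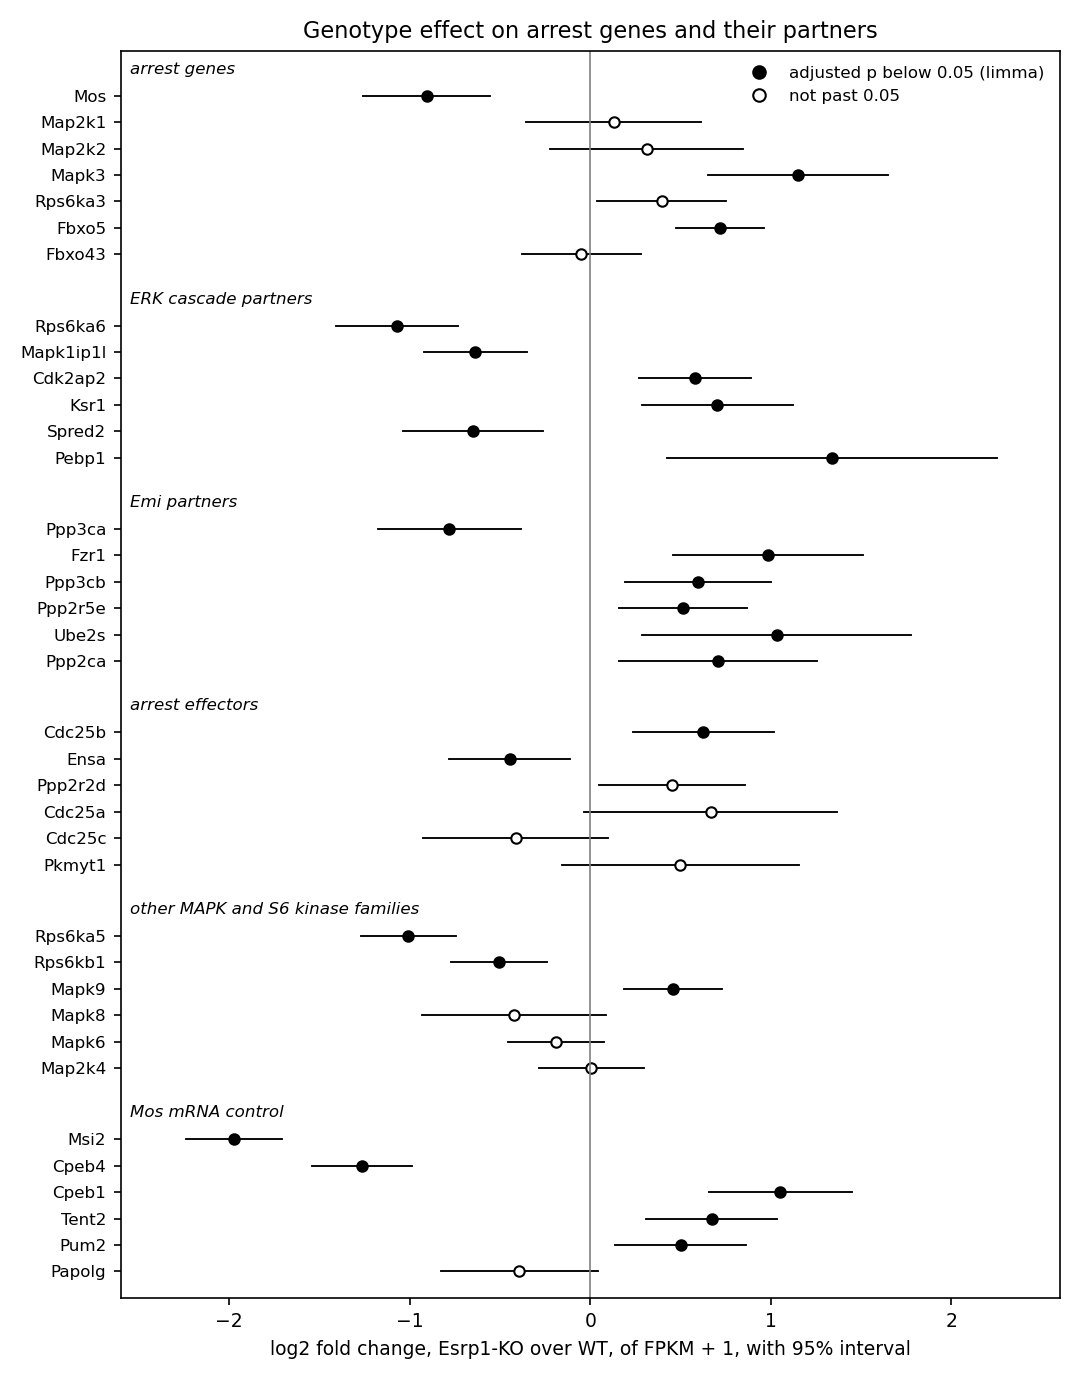
Log2 fold change of FPKM + 1 (Esrp1-KO over WT, horizontal axis) with its 95% interval for the 7 arrest genes tested and for the 6 genes with the smallest p of each partner list; filled points passed an adjusted p of 0.05 (limma), open points did not. Mapk3 (1.15) and Fbxo5 (0.72) lie right of 0, Mos (−0.91) and Rps6ka6 (−1.07) left of it, and the point furthest left is Msi2 (−1.97).

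Among 28 partners of the Emi proteins (the kinases, ubiquitin ligase subunits and phosphatases that act on them, and their target complex), 22 were tested. As 5 rose and 1 fell, 27.3% passed, against 36.9% of all genes. The median log2 fold change of those tested was 0.19. The gene that fell was Ppp3ca, a catalytic subunit of calcineurin, which in frog eggs acts in the exit from arrest (0.766 ± 0.29 FPKM in Esrp1-KO and 2.04 ± 0.56 in WT; −0.78, adjusted p = 0.00711, limma). Ppp3cb, another catalytic subunit of it, rose (1.59 ± 0.60 FPKM in Esrp1-KO and 0.688 ± 0.19 in WT; 0.60, adjusted p = 0.0271, limma). On the side of the anaphase-promoting complex, the activator Fzr1 (4.06 ± 1.80 FPKM in Esrp1-KO and 1.45 ± 0.29 in WT; 0.98, adjusted p = 0.00919, limma) and the chain-extending enzyme Ube2s rose. Ube2s had 94.6, 75.6, 73.0 and 75.7 FPKM in Esrp1-KO replicates 1 to 4, against 20.3, 27.8, 54.7 and 68.5 FPKM in WT (1.03, adjusted p = 0.0351, limma), and its WT libraries varied more than its Esrp1-KO libraries. Of protein phosphatase 2A, the regulatory subunit Ppp2r5e (3.73 ± 1.06 FPKM in Esrp1-KO and 2.26 ± 0.16 in WT; 0.51, adjusted p = 0.0295, limma) and the catalytic subunit Ppp2ca (6.60 ± 0.96 FPKM in Esrp1-KO and 3.87 ± 1.82 in WT; 0.71, adjusted p = 0.0470) rose, Ppp2ca with 41.0% of its 50-base stretches shared and 41.3% of its exon bases within exons of other genes.
Of these calls, 4 were lost when single libraries were left out. Ube2s was lost without any 1 of the Esrp1-KO libraries or WT replicate 1 or 2 (adjusted p = 0.0602 to 0.0892, limma), Ppp2ca without Esrp1-KO replicate 1, 3 or 4 or WT replicate 1, 2 or 3 (0.0838 to 0.1002), Ppp3cb without Esrp1-KO replicate 2, 3 or 4 or WT replicate 1 or 4 (0.0512 to 0.0682), and Ppp2r5e without WT replicate 1, 3 or 4 (0.0524 to 0.0732). Ppp2ca was also lost with a pseudocount of 0.1 (0.0501), a common total of nuclear genes (0.0710) and sample quality weights (0.0772), and Ube2s with sample quality weights (0.0737). Between replicates 2 and 3 alone Fzr1 (0.46, adjusted p = 0.155, limma) and Ppp3ca (−0.67, adjusted p = 0.133) did not pass.

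Among 14 effectors of the arrest that act on CDK1 or on the phosphatase that opposes it, 13 were tested. As 1 rose and 1 fell, 15.4% passed, against 36.9% of all genes. The median log2 fold change of those tested was −0.01. Cdc25b, the phosphatase that activates CDK1 when mouse oocytes resume meiosis, rose (3.94 ± 1.15 FPKM in Esrp1-KO and 2.14 ± 0.24 in WT; 0.63, adjusted p = 0.0193, limma), and the call was lost without Esrp1-KO replicate 4 (0.0569). Ensa, an inhibitor of protein phosphatase 2A, fell (1.14 ± 0.21 FPKM in Esrp1-KO and 1.93 ± 0.49 in WT; −0.45, adjusted p = 0.0409, limma). Its call was lost without Esrp1-KO replicate 1, 2 or 3 or WT replicate 1, 2 or 4 (0.0557 to 0.0949, limma), with the replicate block (0.0552) and with median-ratio scaling (0.0707) or quantile normalization (0.126). Arpp19, a relative of Ensa, was far more abundant and did not pass (53.7 ± 6.10 FPKM in Esrp1-KO and 49.0 ± 4.35 in WT, log2 fold change 0.13, adjusted p = 0.459, limma). Relatives of Cdc25b had values of 0.67 (Cdc25a, adjusted p = 0.124, limma) and −0.41 (Cdc25c, 0.187) on the log2 scale, the CDK1-inhibiting kinase Pkmyt1 had 0.50 (0.212) and the phosphatase subunit Ppp2r2d had 0.45 (0.0752), and none of these passed with all 8 libraries and values as deposited. Ppp2r2d did pass with the replicate block (0.0487), median-ratio scaling (0.0384), quantile normalization (0.0375) and without WT replicate 4 (0.60, adjusted p = 0.0207, limma), and Cdc25a passed without WT replicate 4 (0.0442). Cdc25c was −0.19 without WT replicate 1, and Pkmyt1 was 0.24 without Esrp1-KO replicate 1 and 0.31 without WT replicate 2.

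Of 20 genes of other MAP kinase and S6 kinase families, which served as a comparison, 6 were tested. As 1 rose and 2 fell, 50% passed, against 36.9% of all genes. The median log2 fold change of those tested was −0.31. Rps6ka5 (MSK1, a kinase activated by ERK and p38) fell to 4.96 ± 0.42 FPKM in Esrp1-KO, against 11.0 ± 1.048 in WT (−1.01, adjusted p = 0.000197, limma). Rps6kb1 (the S6 kinase of the TOR pathway) fell to 9.14 ± 0.72 FPKM in Esrp1-KO, against 13.4 ± 1.34 in WT (−0.51, adjusted p = 0.00852, limma), but did not pass between replicates 1 and 4 alone (0.145) or 2 and 3 alone (0.0530). Mapk9 (JNK2) rose to 5.38 ± 0.45 FPKM in Esrp1-KO, against 3.66 ± 0.48 in WT (0.46, adjusted p = 0.0153, limma), and the call was lost without WT replicate 1 (0.0508) or 4 (0.0505). Mapk8 (JNK1) had a log2 fold change of −0.42, Mapk6 (ERK3) of −0.19 and Map2k4 of 0.01, and none of these passed with all 8 libraries (adjusted p = 0.175, 0.242 and 0.978, limma). Mapk8 did pass between replicates 1 and 4 alone (−0.84, adjusted p = 0.0237, limma) and without Esrp1-KO replicate 2 (−0.62, adjusted p = 0.0325), while it was −0.24 without Esrp1-KO replicate 1 and −0.0036 between replicates 2 and 3 alone.

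Of 10 genes that control the tail length or translation of Mos and similar stored mRNAs, 9 were tested. As 3 rose and 2 fell, 55.6% passed, against 36.9% of all genes. The median log2 fold change of those tested was 0.00. Msi2, a Musashi RNA-binding protein whose family promotes Mos translation in frog oocytes, was almost lost. It had 12, 7, 5 and 24 reads in Esrp1-KO replicates 1 to 4, against 896, 765, 781 and 1062 reads in WT, or 0.0403 ± 0.029 FPKM in Esrp1-KO and 3.10 ± 0.38 in WT (−1.97, adjusted p = 1.00e-05, limma). The pseudocount holds this value down, and on the recovered reads with limma voom it was −6.43.
The CPEB genes, whose proteins bind the cytoplasmic polyadenylation element, moved apart. Cpeb1, which acts first in frog oocytes, had 194, 136, 120.5 and 152 FPKM in Esrp1-KO replicates 1 to 4, against 84.4, 55.7, 71.1 and 75.9 FPKM in WT (1.052, adjusted p = 0.00146, limma). Cpeb4, which follows it at the second meiotic division there, had 5.24, 6.73, 6.79 and 7.27 FPKM in Esrp1-KO, against 16.0, 16.7, 17.8 and 17.4 FPKM in WT (−1.27, adjusted p = 7.52e-05, limma). Neither gene's groups overlapped. Tent2, a cytoplasmic poly(A) polymerase, rose (42.4 ± 7.69 FPKM in Esrp1-KO and 26.1 ± 3.74 in WT; 0.67, adjusted p = 0.00968, limma), and so did the repressor Pum2 (29.8 ± 7.51 FPKM in Esrp1-KO and 20.3 ± 0.96 in WT; 0.50, adjusted p = 0.0352). The Pum2 call was lost without Esrp1-KO replicate 3 or 4 or any 1 WT library (0.0535 to 0.0845, limma). The nuclear poly(A) polymerase Papolg had −0.39 (adjusted p = 0.141, limma), and −0.23 without Esrp1-KO replicate 1.

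The genes most like Mos and Fbxo5 across the 8 libraries were sought among 6827 tested genes with a gene name of their own, by Pearson's r of log2(FPKM + 1). The 8 values share the genotype difference and the libraries' scaling, so r is a description. Those closest to Mos were Bbip1, a subunit of the cilium complex BBSome (r = 0.984; mean 8.18 FPKM in Esrp1-KO and 18.5 in WT), the potassium channel gene Kcnn2 (r = 0.980; 1.19 FPKM in Esrp1-KO and 3.17 in WT) and the zinc finger gene Zfp938 (r = 0.979; 6.44 FPKM in Esrp1-KO and 9.78 in WT). In total, 51 genes had an r above 0.95 with Mos. Those closest to Fbxo5 were Gtf2a1l, a germ cell form of a general transcription factor (r = 0.997; 53.1 FPKM in Esrp1-KO and 24.2 in WT), the endoplasmic reticulum chaperone Hsp90b1 (r = 0.989; 178 FPKM in Esrp1-KO and 83.7 in WT) and Stard3nl (r = 0.988; 153 FPKM in Esrp1-KO and 107 in WT), and 137 genes had an r above 0.95 with it.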

How the data were processed

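RNA-seq was analysed from 4 Esrp1-KO and 4 WT tubes of MII oocytes. Per the file headers, the authors deposited FPKM for each gene. GRCm38 is the build in the submitters' processing notes, while the sources used here give no aligner, counting tool or annotation release. Reverse transcription started from poly(A) tails, per the labels' protocols, so a level counts RNA caught by its tail. Tail length was not measured, and without strand a gene cannot be told from an antisense partner.

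Multiplied by M21 exon length, about 90% of nonzero values were, to within 0.02, a whole number of reads once divided by the worth of 1 read in that library. Reads were so recovered for 22629 genes, and for 1798 more by a search over lengths. PCR copies were not marked, so reads are not independent molecules.

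The 8021 genes averaging at least 1 FPKM were tested on log2(FPKM + 1), a scale that understates changes of low genes, with limma 3.58.1 in R 4.3.3: a model of genotype alone, a trend of the variance with level, two-sided p-values, Benjamini-Hochberg adjustment over all 8021 genes and a threshold of 0.05. The steps were first tested on simulated data. Those had independent libraries and few changed genes, unlike the data here, so they checked the steps and not the error rate of these calls. Alternatives were another pseudocount (0.1), no minimum or 5 FPKM, other scalings, sample weights, limma voom on recovered reads, replicate subsets and each library left out. Leaving out WT replicate 1 with Esrp1-KO replicate 3 was added after seeing the data.

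Same-numbered libraries deviated together, with correlations over genes of 0.226 to 0.317 in 4 of 4 pairs. So did some unlike numbers (0.402 for Esrp1-KO replicate 1 with WT replicate 4, 0.252 for Esrp1-KO replicate 2 with WT replicate 3), as in a split of replicates 1 and 4 from 2 and 3. The other pairs within that split had 0.176 (Esrp1-KO replicate 3 with WT replicate 2) and only 0.017 (Esrp1-KO replicate 4 with WT replicate 1). The numbers come from the labels, and a fit with the replicate block was an alternative.

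The arrest genes and partner lists were chosen with earlier results of these data known. Named partners are the 6 genes with the smallest p of each list, and 1 further gene of the rule is not reported here. Dusp7 was added after its values were seen, to name every call of its list, and Arpp19 for its level beside that of Ensa. Shared 50-base stretches were computed for the genes of the figures and named by gene above 20%.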

Additional observations from a re-analysis of the deposited data

Results flagged for a closer look

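Among 110 groups of 4 libraries examined, 7 held a library further from the other 3 than Dixon's 95% limit on the gap allows for 4 values, where chance flags about 1 in 20 groups. Rps6ka1 was low in WT replicate 2 (0.319 FPKM, a gap of 0.955 of the range). Spred2 was low in Esrp1-KO replicate 3 (0.551 FPKM), and Ube2s was high in Esrp1-KO replicate 1 (94.6 FPKM). Cdc25c was high in Esrp1-KO replicate 3 (1.59995 FPKM) and in WT replicate 1 (3.13 FPKM), and its difference between the genotypes did not pass the test. In Esrp1-KO replicate 2, Mapk3 over Map2k1 was low (0.350), and Rps6ka3 took a high share of the summed FPKM of the 4 RSK genes (23.5%).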

How the results depend on the processing

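The calls of Mos, Mapk3 and Fbxo5 held in all 20 alternatives, with log2 fold changes of −1.10 to −0.78 for Mos (adjusted p = 0.000573 to 0.0190, limma), 0.80 to 1.498 for Mapk3 (0.00100 to 0.0330) and 0.64 to 0.82 for Fbxo5 (0.000377 to 0.0288). Esrp1 stayed between −2.43 and −1.90. The number of arrest genes called was 3 or 4, the fourth being Rps6ka3 where there was one. With the replicate block 3406 genes passed in place of 2961 and 24 partner genes in place of 23, Dusp7 and Ensa were lost and 3 others gained, Ppp2r2d among them, and no call among the arrest genes changed. The number of partner genes called was 12 with a mean of at least 5 FPKM (43 tested), 6 between replicates 2 and 3 alone, 15 to 21 with 1 library left out (15 without WT replicate 1) and 12 without both WT replicate 1 and Esrp1-KO replicate 3. Over all genes it was 1664 with a mean of at least 5 FPKM (4290 tested), 1489 between replicates 2 and 3 alone and 2417 to 2865 with 1 library left out. Fewer genes or samples enter these comparisons. Of the values of the 30 named partner genes under alternatives, 488 kept direction and side of the threshold, 87 kept direction and no longer passed, 7 newly passed and 6 turned sign.

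The sign of small differences was not fixed, and the cause was not tested. Map2k1 turned to −0.14 between replicates 2 and 3 alone and ranged from −0.058 to 0.28 with 1 library left out. Fbxo43 turned to 0.054 with median-ratio scaling, 0.10 between replicates 1 and 4 alone and 0.0016 without both WT replicate 1 and Esrp1-KO replicate 3, and ranged from −0.16 to 0.025 with 1 library left out (0.025 without Esrp1-KO replicate 2, 0.011 without Esrp1-KO replicate 3). Map2k4 turned to −0.058 with a common total of nuclear genes, −0.030 with sample weights and −0.11 between replicates 2 and 3 alone. It ranged from −0.083 to 0.068 with 1 library left out, at −0.083 without Esrp1-KO replicate 1, −0.018 without Esrp1-KO replicate 4 and −0.026 without WT replicate 3. For low genes the pseudocount sets the size. On recovered reads with limma voom the log2 fold change was −1.26 for Spred2, −1.48 for Ppp3ca, 1.14 for Ppp3cb and 1.15 for Ksr1. Rps6ka2, at 0 to 8 reads per library, is too shallow for a comparison.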
